A study of Homo sapiens with 12 samples.

Results

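The comparison described here asks whether the expression changes caused by PIM447 together with pomalidomide and dexamethasone equal the sum of the changes seen with PIM447 alone and with pomalidomide plus dexamethasone alone. It used all 12 arrays of the series and all 17710 genes of the table, with no choice of genes by their values. The cells were MM.1S, an established line grown from a human multiple myeloma, kept in RPMI-1640 medium with serum. There were 4 groups of 3 arrays. Control cells were untreated. PIM cells received PIM447 at 100 nM for 24 hours. Pd cells received pomalidomide at 200 nM and dexamethasone at 5 nM for 15 hours. PIM-Pd cells received all 3 agents at these doses for 10 hours. All treatments were meant to be sub-lethal, and the labels give no time for the untreated cells. Each group therefore differs from the others in exposure time as well as in drugs, and for every result below a departure from the sum and a difference in exposure time cannot be told apart. Results from 1 cell line do not extend to other myeloma cells.

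PIM447 blocks the PIM kinases, serine/threonine kinases that promote growth and translation in blood cancers. Pomalidomide binds cereblon, the substrate receptor of a ubiquitin ligase, and directs the B-lineage transcription factors IKZF1 and IKZF3 to degradation, after which IRF4 and MYC transcription falls in sensitive myeloma cells. Dexamethasone activates the glucocorticoid receptor, a transcription factor that induces genes such as TSC22D3, FKBP5 and DDIT4. The comparison assumes that drugs acting independently on a gene multiply its level, so that their log2 changes add. That is a choice of scale, and a sum that holds does not by itself show independent action.

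For each gene the additivity contrast was the mean of PIM-Pd minus Pd minus PIM plus Control, in log2 RMA values (the probe-summarised, quantile-normalised array signal). A value of 0 means that the combination gave the sum of the single changes. A value above 0 means that the PIM-Pd level was higher than that sum and a value below 0 that it was lower. A gene was called at a Benjamini-Hochberg adjusted p under 0.05 over all 17710 genes in a limma fit of the 4 groups. Arrays of 1 group correlated at 0.987 to 0.993 over genes and arrays of different groups at 0.977 to 0.992. Array medians lay between 4.81 and 4.89. Of the plasma cell markers, 3 of 9 could be named in the table (CD38, SLAMF7 and IRF4), and of the markers of other blood, endothelial, stromal and epithelial cells 2 of 18. Those were CD3E, taken as a T-cell marker, with group means of 4.06 to 4.63, and PECAM1, taken as an endothelial marker, with 4.88 to 5.61. Neither was called in the additivity contrast. PECAM1 was called higher in PIM-Pd against Control (0.72, limma adjusted p = 0.049).

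By the test, 3 genes departed from the sum of the single changes. These were EFEMP1, which lay above the sum, and GRHL3 and ARHGAP6, which lay below it. They were 0.0169% of the genes tested, 0.00565% above and 0.0113% below. At an unadjusted p under 0.05 there were 1033 genes, or 5.83%. The median contrast over all genes was -0.01 and the median of its size was 0.140, beside a median standard error of 0.194. The 95% interval of the contrast, not adjusted for the number of genes, lay wholly within 1 log2 unit of 0 for 16808 genes (94.9%). The remaining genes were too variable or too far from 0 for a 2-fold departure to be excluded from their interval. Most genes also changed little in PIM-Pd against Control (median size 0.133), so that a contrast near 0 over all genes says little of how changes add. Over the 1901 genes with a symbol, which the study's tables list as changed on these arrays, the median size of the contrast was 0.213 and 84.9% of intervals lay within 1 log2 unit of 0. A contrast of 1 log2 unit or more was seen for 23 genes, 11 above and 12 below.

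The terms of the sum differed in size. No gene was called in PIM against Control (0%), while 1098 had an unadjusted p under 0.05 and the lowest adjusted p in limma was 0.453. In Pd against Control 960 genes were called (5.42%), 616 higher (3.48%) and 344 lower (1.94%). In PIM-Pd against Control 1671 genes were called (9.44%), 782 higher (4.42%) and 889 lower (5.02%). These 3 comparisons share the Control arrays, so that their gene lists cannot be set against each other as separate evidence. In bulk RNA, fewer cells of a kind and less RNA per cell cannot be told apart.

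Changes that use no array in common were therefore set side by side. Pd was compared with Control in the absence of PIM447, and PIM-Pd with PIM in its presence. PIM-Pd against PIM gave 1003 called genes (5.66%), 523 higher and 480 lower. Over all genes the slope of the second change on the first was 0.659, with Pearson's r of 0.657 and a Spearman rank correlation of 0.454 across genes, which are not independent replicates. The spread between arrays amounted to 32.2% of the variance of Pd minus Control over genes and pulls the slope towards 0. With that part of the variance removed, a step added after the data had been seen, the slope was 0.972, where 1 is additivity. The planned bracket ran from the slope of 0.659 to 1.52, the inverted slope of the reverse regression. That bracket holds 1 but is too wide to show additivity. Within the 3 experiments the uncorrected slope was 0.479, 0.506 and 0.449.

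The same could not be read for PIM447. PIM-Pd against Pd gave 14 called genes (0.0791%), 1 higher and 13 lower. The slope of PIM-Pd minus Pd on PIM minus Control was 0.174, with r of 0.157, and in the 3 experiments 0.171, -0.001 and 0.011. The spread between arrays amounted to 88.1% of the variance of PIM minus Control, so that few genes carried a PIM447 change large enough for its persistence beside Pd to be seen. With that part removed, also after the data had been seen, the slope was 1.46. The planned bracket ran from 0.174 to 7.04, the inverted slope of the reverse regression. None of these values can be read as a departure from additivity or as additivity.

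**Figure D1:**
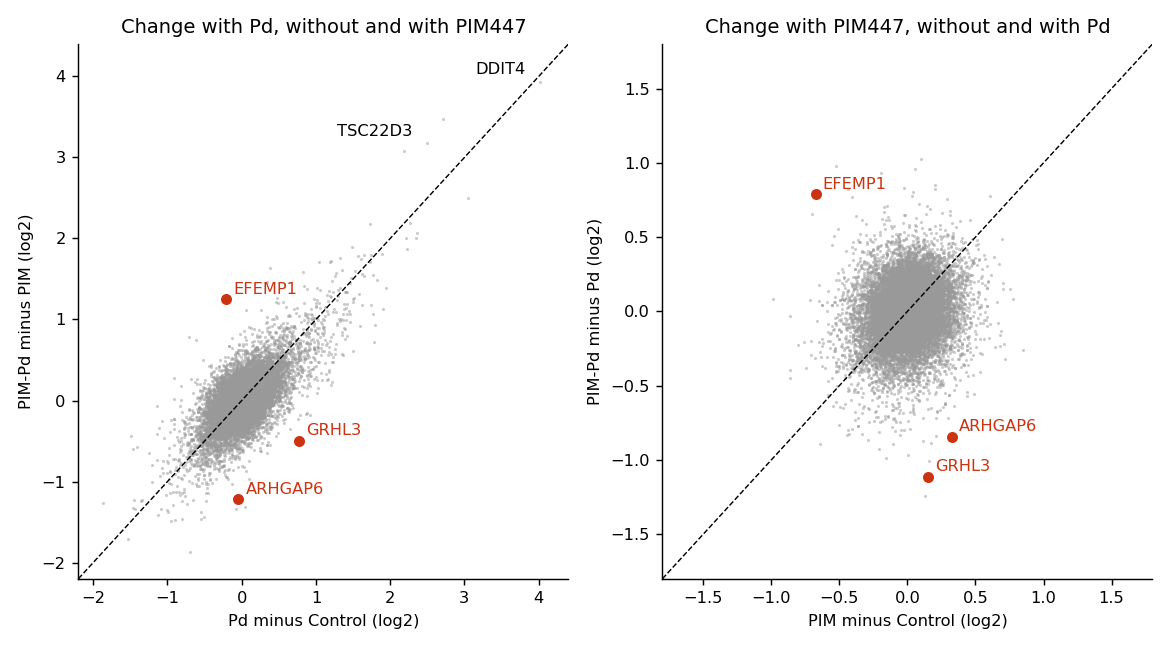
Log2 changes of 17710 genes with Pd, without PIM447 (x axis) and with it (y axis), on the left, and with PIM447, without Pd (x axis) and with it (y axis), on the right. Each grey point is a gene, the dashed line marks equal changes and red points are the 3 called genes. On the left the points rise with a slope of 0.659, less steep than the dashed line, and DDIT4 lies near that line at 4.02 and 3.94. On the right they form a cloud around 0 with a slope of 0.174.

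EFEMP1 encodes fibulin-3, a glycoprotein of the extracellular matrix. Its log2 values were 4.46, 4.13 and 4.44 in Control, 3.38, 3.79 and 3.83 in PIM, 4.17, 4.06 and 4.16 in Pd, and 4.93, 4.71 and 5.11 in PIM-Pd. All 3 PIM-Pd arrays lay above all other arrays, and the PIM arrays were the lowest. The change from Control was -0.68 in PIM and -0.21 in Pd, which sum to -0.89, and 0.58 in PIM-Pd. The contrast was 1.46 (SE 0.205, 95% interval 1.03 to 1.90, limma adjusted p = 0.029) and was above 0 in each of the 3 experiments (1.84, 0.99 and 1.56). EFEMP1 was the gene with an interval wholly beyond 1 log2 unit. It was a dim gene, with all Control, PIM and Pd values below the array medians of 4.81 to 4.89 and the PIM-Pd values near them. It was still called with the dimmest genes left out.

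GRHL3 encodes a grainyhead-like transcription factor known from the epidermal barrier. It read 7.42, 7.32 and 6.99 in Control, 7.47, 7.23 and 7.49 in PIM, 7.92, 8.04 and 8.07 in Pd, and 6.99, 6.79 and 6.91 in PIM-Pd. The Pd arrays were all higher than the others, and the PIM-Pd arrays lay below all other arrays, the highest of them (6.989) just under the lowest Control array (6.993). The changes from Control were 0.15 in PIM and 0.77 in Pd (adjusted p = 0.0023 for Pd), which sum to 0.92, and -0.35 in PIM-Pd. The rise seen with Pd was not seen when PIM447 was also given, and PIM-Pd was lower than Pd by a log2 change of -1.11 (adjusted p = 0.0031). The contrast was -1.26 (SE 0.180, 95% interval -1.65 to -0.88, limma adjusted p = 0.029), with -0.98, -1.16 and -1.65 in the 3 experiments. With the experiment number as a block the adjusted p of GRHL3 was 0.068, and 2 genes remained called.

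ARHGAP6 encodes a GTPase-activating protein of the cytoskeleton. Its values were 8.01, 7.86 and 7.85 in Control, 8.38, 8.12 and 8.20 in PIM, 7.89, 7.85 and 7.84 in Pd, and 6.999, 7.19 and 6.87 in PIM-Pd. Neither treatment alone gave a called change (0.33 in PIM and -0.05 in Pd), and the PIM-Pd arrays lay below all other arrays. ARHGAP6 fell by 0.89 on the log2 scale in PIM-Pd against Control, and by 0.84 against Pd (adjusted p = 0.011). The contrast was -1.17 (SE 0.161, 95% interval -1.51 to -0.83, limma adjusted p = 0.029), with -1.26, -0.93 and -1.32 in the 3 experiments.

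**Figure D2:**
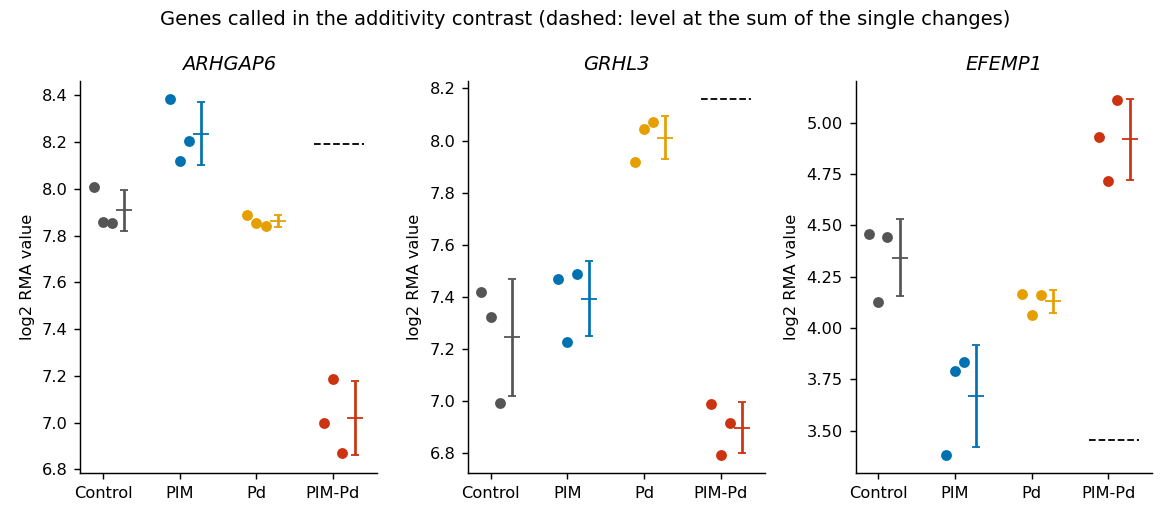
Log2 RMA values of ARHGAP6, GRHL3 and EFEMP1 in the 12 arrays. Points are arrays, bars with a cross line are group means and SDs (n = 3), and the dashed line is the level at which PIM-Pd would lie if the single changes added. The PIM-Pd arrays lie below that line for ARHGAP6 and GRHL3 and above it for EFEMP1.

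The calls rested on few arrays. No gene was called when any 1 of 10 arrays was left out. Without the second PIM array the same 3 genes were called, and without the second PIM-Pd array ARHGAP6, EFEMP1 and DEPTOR. The contrasts themselves moved little, with ranges of 1.32 to 1.57 for EFEMP1, -1.35 to -1.14 for GRHL3 and -1.25 to -1.10 for ARHGAP6. When the sum was taken of unlogged signals, 7 genes were called, 2 above and 5 below. That fit also let the expected spread follow the mean signal (a trended prior). The 7 were these 3 and WNT10A, CMBL, NDNF and ANKRD28, which were chosen here after their values were seen.

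Symbols were at hand for 1901 of the 17710 gene identifiers (10.7%), from the study's own tables of genes that it found changed on these arrays. Groups of related genes below hold only members with such a symbol. They were therefore selected for a change on these same arrays, and their counts describe them and are not independent evidence of a direction. The contrast and the sum also share the Control, PIM and Pd arrays, and noise in those arrays moves them in opposite ways. For genes so selected, a sum set beside an observed change below is description only. Over the 1901 genes the median contrast was -0.08 and 39.2% lay above 0. Over all genes 48.6% lay above 0. The 28 lists held 204 different named members, of which 0 were called in the additivity contrast in limma (lowest adjusted p 0.406) and 105 lay above 0, with a median of 0.01.

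Genes tied to the drugs' known actions varied in how near the sum they lay, with DDIT4, IRF4, IKZF1, IKZF3 and CRBN within 0.17 log2 units of it and PIM1 and TSC22D3 farther off. DDIT4, an inhibitor of mTORC1 signalling that glucocorticoids induce, read 5.20, 5.42 and 5.15 in Control, 5.42, 5.27 and 5.16 in PIM, 9.29, 9.20 and 9.34 in Pd, and 9.10, 9.16 and 9.39 in PIM-Pd. The Pd and PIM-Pd arrays overlapped and stood far above the others. The summed change was 4.04 and the observed change 3.96, with a contrast of -0.08 (95% interval -0.44 to 0.28). IRF4, a transcription factor on which myeloma cells depend, was 9.94, 10.24 and 10.02 in Control, 9.57, 10.08 and 9.97 in PIM, 8.90, 9.03 and 8.96 in Pd and 9.01, 8.92 and 8.89 in PIM-Pd. Here too Pd and PIM-Pd overlapped. IRF4 fell by 1.10 on the log2 scale in Pd and by 1.12 in PIM-Pd, against a sum of -1.29 (contrast 0.17, 95% interval -0.24 to 0.57). IKZF1 and IKZF3, whose proteins pomalidomide removes, had contrasts of -0.07 and 0.05, and cereblon (CRBN) one of 0.15, and all 3 intervals held 0. PIM1, a target of PIM447, changed by 0.29 in PIM, -0.99 in Pd and -1.09 in PIM-Pd, with a contrast of -0.39 (95% interval -0.996 to 0.21).

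MYC, which drives growth and ribosome production, read 9.21, 9.65 and 9.59 in Control, 9.17, 9.48 and 9.69 in PIM, 9.04, 9.10 and 8.99 in Pd, and 8.50, 8.76 and 8.66 in PIM-Pd. The PIM-Pd arrays were the 3 lowest. MYC fell by 0.85 on the log2 scale in PIM-Pd (adjusted p = 0.0020). The sum of its single changes was -0.48, neither of them called, and the contrast was -0.37 (95% interval -0.81 to 0.08). CCND2, a D-type cyclin that starts the cell cycle, changed by -0.26 in PIM, -0.47 in Pd and -1.07 in PIM-Pd, and its contrast of -0.34 had an interval from -0.68 to just below 0 (adjusted p = 0.850).

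These were among the 8 genes that the study took to RT-qPCR after these same arrays had shown them lower in PIM-Pd. Counts and contrasts of the 8 therefore describe them and are not independent evidence. All 8 were called lower in PIM-Pd against Control, where 5.02% of all genes were, and 2 in Pd against Control (CCND2 and IRF4), where 1.94% were. The contrast lay below 0 for 6 of them and above for IRF4 and PGK1, with a median of -0.23 and values from -0.39 for ACACA, the enzyme that starts fatty acid synthesis, to 0.17 for IRF4. PFKM, a glycolytic enzyme, had -0.32, and CDK4 and the nucleolar methyltransferase FBL -0.15 and -0.14. None of the 8 was called in the contrast. Their means were lower in PIM-Pd than in either single treatment, by as little as -0.02 against Pd for IRF4. In PIM-Pd against Pd 0 of the 8 were called, where 0.0791% of all genes were. With 3 arrays a group, these lower means could not be told apart from the sum of smaller changes.

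**Figure D3:**
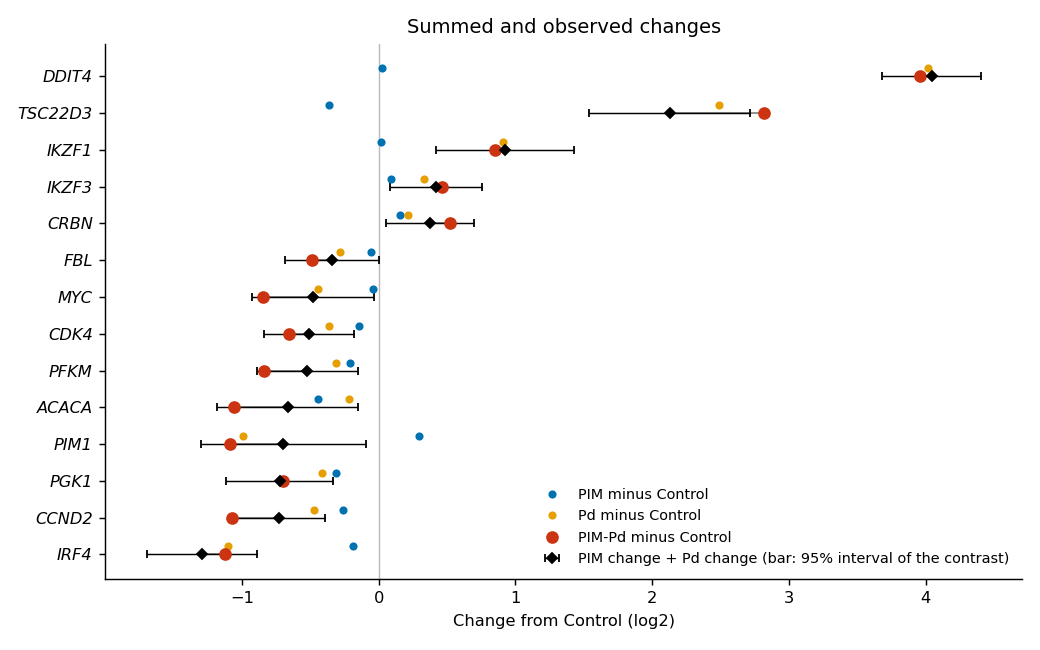
Change from Control, in log2 units, of 14 genes fixed by name: PIM (blue), Pd (orange), their sum (black diamond) and PIM-Pd (red). The black bar is the 95% interval of the additivity contrast, drawn around the sum. The red point lies within the bar for 12 of the 14 genes; for TSC22D3 it lies above it and for CCND2 at its lower end.

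Among glucocorticoid receptor targets, 10 of 27 could be named. In Pd 6 were called higher (3.48% of all genes), and in PIM-Pd 7 were called higher (4.42% of all genes) and 1 lower (5.02% of all genes). The contrast lay above 0 for 8 and below for 2, with a median of 0.17 (-0.07, 0.34 and 0.22 in the 3 experiments). TSC22D3, which encodes the anti-inflammatory protein GILZ, read 5.93, 5.92 and 6.27 in Control, 5.20, 6.02 and 5.80 in PIM, 8.70, 8.25 and 8.64 in Pd, and 8.89, 8.63 and 9.06 in PIM-Pd. The Pd and PIM-Pd arrays overlapped, and the first PIM array was the lowest of all. Its contrast was 0.69 (95% interval 0.10 to 1.28, adjusted p = 0.822), and FKBP5, a co-chaperone of the receptor, had 0.45. TXNIP, an inhibitor of thioredoxin, had -0.57 with an interval of -1.69 to 0.55, and its value ran from -0.956 to -0.150 with 1 array left out.

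Genes of amino acid supply under ATF4, the transcription factor of the amino acid response, and of tRNA charging were lower in both Pd and PIM-Pd. Of 18 named among 36, 10 were called lower in Pd and 17 in PIM-Pd, and none higher. Of all genes 1.94% and 5.02% were called lower. The median summed change was -0.83 and the median observed change -0.84, with a median contrast of 0.14 (0.32, 0.24 and -0.01 in the 3 experiments), 11 above 0 and 7 below. The largest contrasts of the list were those of SLC7A11, the cystine-glutamate antiporter (1.07), and of the serine synthesis enzymes PSAT1 (0.83) and PHGDH (0.77). SLC7A11 changed by -0.99 in PIM, -1.14 in Pd and -1.06 in PIM-Pd. PHGDH read 6.31, 6.28 and 6.12 in Control, 5.60, 5.90 and 5.67 in PIM, 4.89, 5.50 and 4.98 in Pd, and 5.05, 5.35 and 5.75 in PIM-Pd. Its PIM arrays lay below Control, and PIM-Pd overlapped both Pd and PIM. For PHGDH the sum was -1.62 and the observed change -0.85 (contrast 95% interval 0.23 to 1.32, adjusted p = 0.745). ALDH18A1, of proline synthesis, and VARS1, the valyl-tRNA synthetase, lay on the other side (-0.38 and -0.33).

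Promoter windows, from 250 bases before to 50 after the gene start, were at hand for 12 of these 18 genes in RefSeq (GRCh38.p14). The letters TGATGNAA on either strand, which resemble the site bound by ATF4 and its partners, were in 5 of the 12 (41.7%) and in 3.67% of 27305 promoter windows of the same length. The list was made of genes tied to ATF4, so that this share describes the list and is no result of these arrays. The planned set was the called genes, the fixed panel and each list's members with the lowest p. Of its 45 windows, 0 held these letters. From the list, the 3 windows with the match before the gene start are shown, 60 bases each on the strand of the gene, with the match in capitals. A match describes letters and not binding, and members with the match had contrasts on both sides of 0 (ASNS 0.59, AARS1 0.33, NARS1 0.21, IARS1 0.04 and SLC7A1 -0.18).
ASNS, asparagine synthetase, chr7:97872443-97872502, minus strand: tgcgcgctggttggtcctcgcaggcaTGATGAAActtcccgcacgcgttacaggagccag
AARS1, alanyl-tRNA synthetase, chr16:70289660-70289719, minus strand: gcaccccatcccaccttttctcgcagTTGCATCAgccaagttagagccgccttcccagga
IARS1, isoleucyl-tRNA synthetase, chr9:92293698-92293757, minus strand: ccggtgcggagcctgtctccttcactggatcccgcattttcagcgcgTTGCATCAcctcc

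Genes of cholesterol synthesis and uptake were also lower, with 8 of 10 named members called lower in Pd and 10 in PIM-Pd, of 26 in the list, beside 1.94% and 5.02% of all genes. Their median change was -0.43 in PIM, -0.73 in Pd and -0.78 in PIM-Pd, against a median sum of -1.12. The contrast lay above 0 for 9 and below for 1, with a median of 0.31 and medians of 0.21, 0.38 and 0.50 in the 3 experiments. INSIG1, which holds the sterol-sensing SREBP complex in the endoplasmic reticulum, read 8.03, 8.69 and 8.72 in Control, 7.60, 8.11 and 8.20 in PIM, 7.47, 7.56 and 7.53 in Pd, and 7.80, 7.55 and 7.85 in PIM-Pd. The PIM-Pd arrays overlapped both Pd and PIM. The sum was -1.46, the observed change -0.75 and the contrast 0.71 (95% interval 0.15 to 1.28, adjusted p = 0.813). HMGCS1 and DHCR7, enzymes at the start and the end of the pathway, had 0.60 and 0.50, and PMVK, the phosphomevalonate kinase, had -0.01.

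Ribosome biogenesis factors had the opposite side of 0. Of 33 named among 58, 6 were called lower in Pd (1.94% of all genes) and 30 in PIM-Pd (5.02% of all genes). The median change was -0.21 in PIM, -0.50 in Pd and -0.90 in PIM-Pd, against a median sum of -0.68. The contrast lay below 0 for 28 and above for 5, with a median of -0.16 (-0.35, -0.06 and -0.17 in the 3 experiments), where the median of all 1901 genes with a symbol was -0.08. NOL6, a factor of the small subunit processome, read 6.77, 6.58 and 6.38 in Control, 6.46, 6.42 and 6.35 in PIM, 6.08, 6.19 and 6.02 in Pd, and 5.05, 5.63 and 5.46 in PIM-Pd. The PIM-Pd arrays were the 3 lowest, with the first far below the other two. NOL6 changed by -1.20 in PIM-Pd against a sum of -0.64 (contrast -0.56, 95% interval -0.99 to -0.12, adjusted p = 0.813). DDX10, an RNA helicase, had -0.82, DKC1, the pseudouridine synthase dyskerin, -0.60, and WDR75 0.28. The E-box letters CACGTG, the same on both strands and bound by MYC with MAX among others, were in 14 of the 27 promoter windows at hand for the list (51.9%) and in 7.43% of all windows, which is again a description of letters. In the planned set of called, fixed-panel and lowest-p genes, 6 of 45 windows held them (13.3%). POLR1B, the second largest subunit of RNA polymerase I, changed by 0.25 in PIM, -0.22 in Pd and -0.70 in PIM-Pd (contrast -0.73, 95% interval -1.17 to -0.29, adjusted p = 0.652), while the 11 named members of its list of RNA polymerase I and III genes had a median of -0.07.

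**Figure D4:**
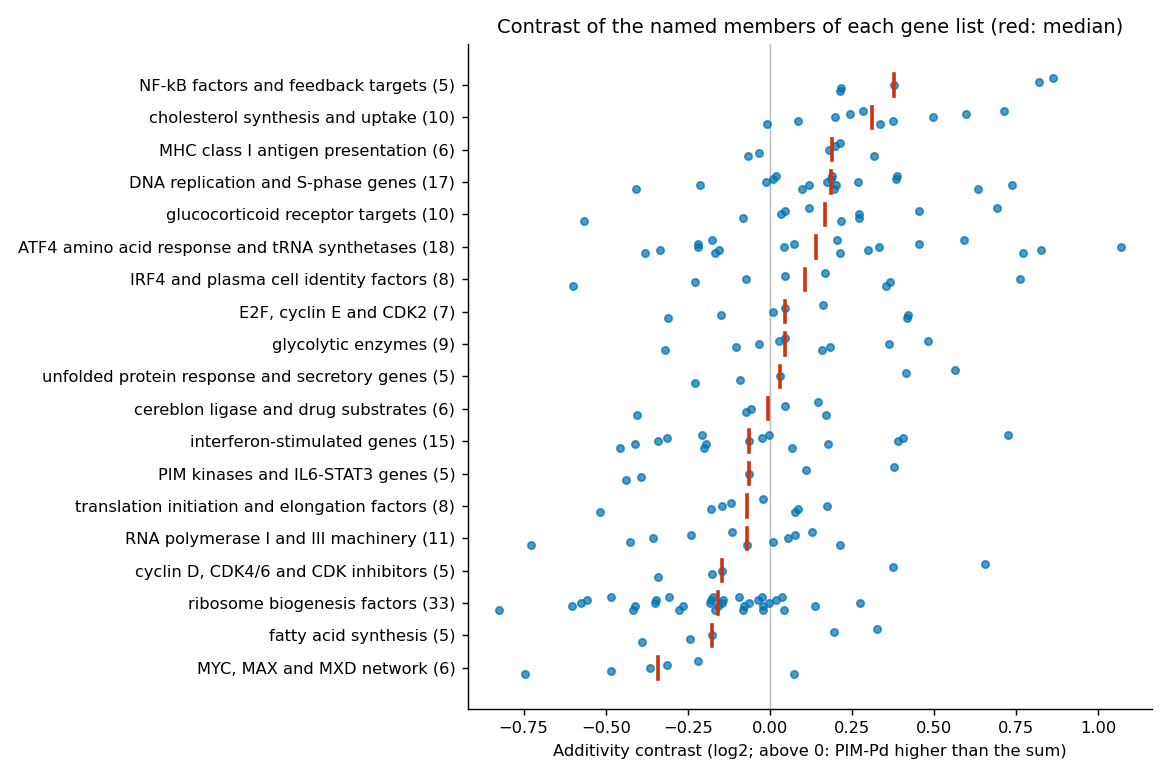
Additivity contrast, in log2 units, of the named members of the 19 gene lists with 5 or more (number in brackets), ordered by their median (red line). Each point is a gene, and the list of the RT-qPCR genes is left out. The medians run from -0.34 for the MYC network to 0.38 for NF-kB genes, and most lists have members on both sides of 0.

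Signalling lists had few named members. All 4 named MAPK feedback genes of 23 lay below the sum, with a median of -0.40. SPRED1, an inhibitor of RAS signalling to RAF, read 7.05, 7.02 and 6.86 in Control and rose in Pd to 7.65, 7.45 and 7.55. It was 7.40, 7.48 and 7.28 in PIM and 7.49, 7.42 and 7.40 in PIM-Pd, so that the 3 treated groups were at a similar level. Its contrast was -0.52 (95% interval -0.85 to -0.20, adjusted p = 0.652) and -0.51, -0.49 and -0.57 in the 3 experiments. All 5 named NF-kB genes of 23 lay above the sum, with a median of 0.38, led by BIRC3, an inhibitor of apoptosis, at 0.86 and the chemokine CCL3 at 0.82. In the second experiment the NF-kB median was -0.12.

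Further members with an interval clear of 0 included the mTOR-binding inhibitor DEPTOR, the apoptosis genes BMF and BCL2, and the MYC antagonist MXD4. DEPTOR read 9.34, 9.36 and 9.35 in Control, 9.50, 9.51 and 9.54 in PIM, 9.49, 9.27 and 9.56 in Pd, and 8.31, 9.08 and 8.27 in PIM-Pd. All PIM-Pd arrays lay below the others, and the second stood apart from the other two. DEPTOR fell by 0.80 on the log2 scale in PIM-Pd (limma adjusted p = 0.0080) against a sum of 0.26. Its contrast of -1.06 (95% interval -1.57 to -0.54) had a limma adjusted p of 0.406, or 0.352 with the experiment block. Over the 12 fits with 1 array left out the adjusted p ran from 0.018 to 0.80, and 1 fit called DEPTOR. That fit left out the second PIM-Pd array, the one nearest the other groups, and gave a contrast of -1.32. BMF, which promotes apoptosis by binding BCL2 proteins, changed by 0.60 in PIM, 1.90 in Pd and 1.72 in PIM-Pd (contrast -0.78, 95% interval -1.26 to -0.29), and BCL2 by 0.17, 0.06 and 0.76 (contrast 0.52, 95% interval 0.02 to 1.03). MXD4 changed by 0.67, 0.82 and 0.74 (contrast -0.75, 95% interval -1.37 to -0.12). The adjusted p of these 3 contrasts was 0.655, 0.842 and 0.816.

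**Figure D5:**
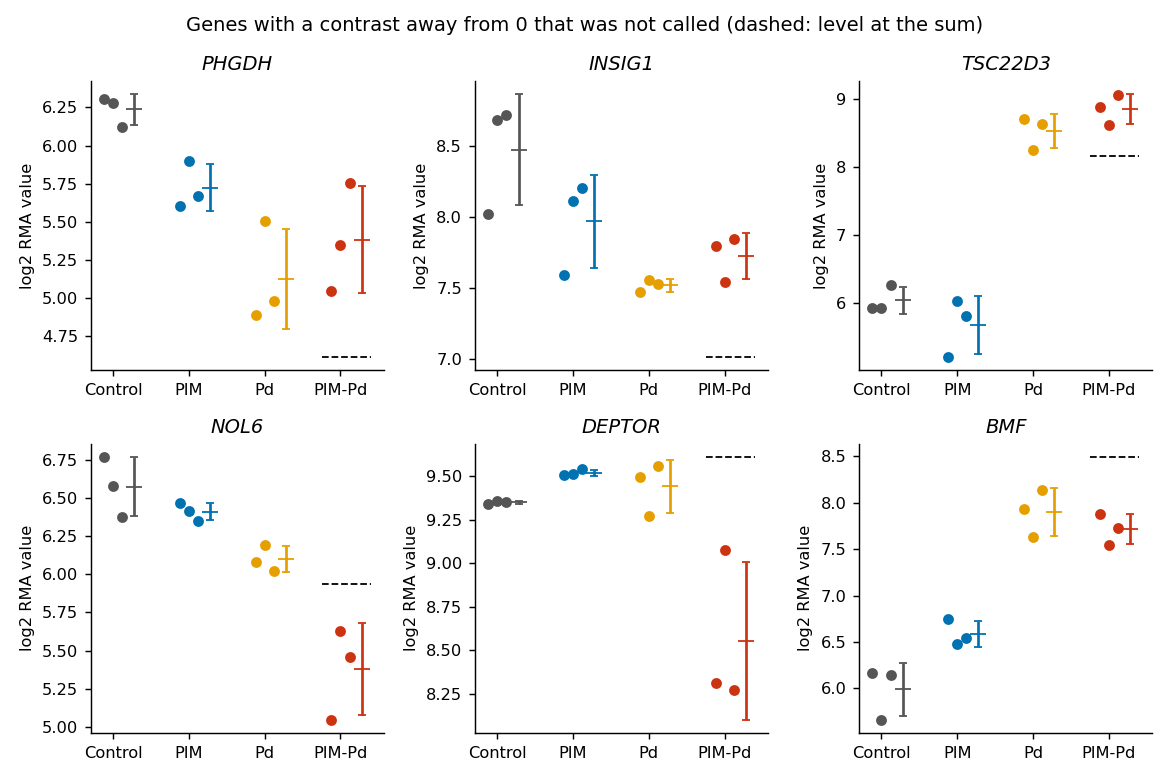
Log2 RMA values of 6 listed genes in the 12 arrays, with group means and SDs (n = 3) and, dashed, the PIM-Pd level at which the single changes would add. PIM-Pd lies above the dashed line for PHGDH, INSIG1 and TSC22D3 and below it for NOL6, DEPTOR and BMF, and none of the 6 was called.

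The MYC, MAX and MXD network had the lowest median of the 19 lists with 5 or more named members, -0.34 over 6 of 18, with 5 below 0 and medians of -0.33, -0.12 and -0.53 in the 3 experiments. Plasma cell markers (3 named, median 0.35), mitotic genes (3 named, 0.34) and proteasome subunits (4 named, 0.26) rested on too few members to describe further. Of 17 named replication and S-phase genes among 50, 7 were called lower in Pd (1.94% of all genes) and 13 in PIM-Pd (5.02% of all genes), and 14 lay above the sum, with a median contrast of 0.19 but 0.00, 0.45 and 0.09 in the 3 experiments. GINS4, of the replicative helicase, had 0.74 and UHRF1, which maintains DNA methylation, -0.41. The E2F letters TTTCCCGC or TTTGGCGC on either strand were in 7 of the 15 windows at hand for these genes (46.7%) and in 2.31% of all windows. The list was chosen by function, and its share describes the list only. In the planned set of called, fixed-panel and lowest-p genes, 4 of 45 windows held them (8.89%). Of 15 named interferon-stimulated genes among 46, 7 were called higher in Pd (3.48% of all genes) and 10 in PIM-Pd (4.42% of all genes), with a median contrast of -0.06 and SAMD9L at 0.73 and IRF1 at -0.46. The proteasome subunit PSMB6 and the endoplasmic reticulum chaperone HSP90B1 had 0.57 and 0.56. No gene symbol was at hand for any of the 77 cytosolic ribosomal proteins, nor for PIM2 and PIM3, which were not analysed here.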

How the data were processed

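MM.1S RNA was hybridised to Clariom S arrays, 3 independent experiments for each of Control, PIM, Pd and PIM-Pd. The deposited log2 values were made by the authors with RMA in oligo 1.44.0 and R 3.5.0 on a custom Ensembl gene definition (version 22). They hold 17710 genes. The genome build is not given in the sources used here, and precision is limited by the number of arrays.

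Groups and experiment numbers came from the labels. All 12 arrays entered 1 limma 3.58.1 model (R 4.3.3, lmFit and eBayes, no block), and 6 contrasts were each adjusted by Benjamini-Hochberg over all genes. The study's own pairwise method (SAM) has no such contrast. The fitting step was tested on simulated data. The labels call the experiment numbers pairs; residuals of the 18 same-number pairs correlated at -0.10 to 0.30, 9 of them above 0.1.

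Symbols came from the study's tables of changed genes, used for names only (64 were updated through RefSeq; 15809 identifiers stayed unnamed). Gene lists and members were chosen with earlier results of these data known. Named genes were the called genes, a fixed panel, and in each list the member with the lowest p on each side; others were named after their values were seen. A listed gene is not reported here. Alternatives were the experiment block, quantile normalisation, median centring, removal of 5313 dim genes, a trended robust prior and array weights. Others were unlogged values with a trended prior, a 2-fold call rule and each array left out.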

Additional observations from a re-analysis of the deposited data

Results flagged for a closer look

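For 3 genes the change with PIM447 differed between cells without and with Pd, by the limma test of the difference itself (adjusted p = 0.029 for each). With the experiment number as a block the adjusted p was 0.0498 for EFEMP1 and ARHGAP6 and 0.068 for GRHL3, which was then not called, and leaving out any 1 of 10 arrays ended all 3 calls. EFEMP1 changed by -0.68 with PIM447 alone and by 0.79 with PIM447 beside Pd, a difference of 1.46. GRHL3 changed by 0.15 and by -1.11, a difference of -1.26. ARHGAP6 changed by 0.33 and by -0.84, a difference of -1.17. The exposures also differed in time, so that treatment and time cannot be told apart.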

How the results depend on the processing

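With 3 arrays a group the median half-width of the 95% interval, not adjusted for the number of genes, was 0.414. A call over all genes asked for more. Of the 23 genes with a contrast of 1 log2 unit or more in size, 3 were called. A departure from the sum of about 1 log2 unit or less was therefore mostly not detectable for single genes. The 3 calls were the same genes after quantile normalisation, median centring, removal of dim genes, a trended robust prior or array weights. With the replicate block ARHGAP6 and EFEMP1 were called (1 below the sum), and it changed no other call among the named genes' contrasts. Unlogged signals with a trended prior gave 7 called, 2 above and 5 below. Leaving out single arrays gave 0 to 3 called (0 to 1 above, 0 to 2 below). Counts for Pd against Control were 1516 with array weights, 191 with a 2-fold rule and 497 to 1049 with an array left out (522 without the first and 608 without the third Control array, 520 without the first and 497 without the third Pd array). Counts for PIM-Pd against Control were 255 with a 2-fold rule and 1096 (without the third Control array) to 1771, for PIM-Pd against PIM 173 and 648 (without the third PIM-Pd array) to 953, and for PIM-Pd against Pd 8 with quantile normalisation, 26 with the trended prior, 1 with a 2-fold rule and 2 to 15 with an array left out. The slope for Pd was 0.690 without dim genes, 0.586 to 0.691 with an array left out and 0.972 with array spread removed, and that for PIM447 0.040 (without the first PIM-Pd array) to 0.268 and 1.46. The median size of the contrast was 0.156 without dim genes and 0.141 to 0.153 with an array left out. Contrasts near 0 changed sign with an array left out for PGK1 (-0.086 to 0.158), IKZF1 (-0.292 to 0.127), IKZF3 (-0.018 to 0.153), CD3E (-0.081 to 0.242), HLA-F (-0.184 to 0.085), PMVK (-0.098 to 0.078), MXD1 (-0.174 to 0.419), PDCD4 (-0.043 to 0.335) and PECAM1 (-0.413 to 0.073), and PMVK did with array weights (0.018). The cause was not tested.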
